A study of Homo sapiens with 12 samples.

Results

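Collagen genes encode the chains of the collagen superfamily, the proteins that give the extracellular matrix its fibres, sheets and microfilaments. They were taken as the protein-coding genes whose symbol has the form COL, a number, A and a number, which picked 44 of the 60664 genes in the count table. A filter on low counts kept 17960 genes, among them 32 of the 44 collagen genes. The other 12 are treated here as not expressed.

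The study asked which transcripts of neuroblastoma cells change with the stiffness of their substrate. It used SK-N-SH, a human neuroblastoma cell line known as a mixture of small neuron-like cells and flat cells that adhere tightly. RNA was sequenced from 4 libraries each of cells on 1 kPa, 8 kPa and 30 kPa, where kilopascals (kPa) measure elastic modulus and fewer of them mean a softer surface. The groups differ in stiffness alone as far as the labels say, all of them come from this line with no added agent or engineered allele named, and the labels used here do not give the material of the surface, its coating or the time on it. Whether the numbered libraries of a stiffness are separate cultures is not stated in the labels, so p-values measure only the spread between these libraries, which may be technical.

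The libraries held 14317437 to 15896607 counts at 1 kPa, 14951116 to 25349320 at 8 kPa and 23896536 to 27820973 at 30 kPa. All 1 kPa libraries and 8 kPa replicate 1 were therefore shallow, and the others were deep. Depth and stiffness cannot be told apart between 30 and 1 kPa, because no 1 kPa library was deep and no 30 kPa library was shallow. Levels are given as CPM, the counts of a gene scaled to a common library size. Of the 10 neuroblastic marker genes, 9 passed the filter, while TH reached no more than 0.0358 CPM. All 10 markers of substrate-adherent or mesenchymal cells passed it.

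Every collagen is a trimer of chains wound into a triple helix of glycine-rich repeats, built in the endoplasmic reticulum, secreted and then assembled outside the cell. Fibrillar collagens form the banded fibres that bear tension. Basement membrane collagens form the sheet-like network under epithelia, around vessels and around nerves, and the multiplexins, which carry sugar side chains, sit at its edge. The fibril-associated collagens with interrupted triple helices (FACIT) coat fibrils without forming them. Microfibrillar collagen VI forms beaded filaments around cells, the short chain collagens form lattices, and the transmembrane collagens stay anchored in the plasma membrane. In neuroblastoma the flat cells of mixed lines are known as the main makers of matrix.

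By class, 7 of 11 fibrillar genes, 6 of 6 basement membrane genes, 2 of 2 multiplexins, 5 of 10 FACIT genes, 4 of 5 microfibrillar genes, 3 of 3 short chain network genes, 3 of 4 transmembrane genes and 2 of 3 remaining genes passed the filter. The fibrillar genes under it were COL2A1, COL5A3, COL11A1 and COL24A1. The FACIT genes under it were COL9A1, COL12A1, COL14A1, COL20A1 and COL22A1. COL6A5, COL25A1 and COL28A1 made up the rest. None of these genes had more than 12 counts in any library. COL6A5 had 2 counts over all 12 libraries, and COL20A1 and COL25A1 had 5 each, while COL12A1, a FACIT gene of tendon and skin, had 57. COL28A1 had the most at 78, with at least 4 in each library, while COL26A1, which passed the filter, had 111. No collagen gene was at 0 in every library, so absence is stated only for this depth.

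Levels were compared between genes as CPM per kilobase (kb) of exon, unless coding length is named. On that scale the family covered more than 3 orders of magnitude. COL8A1, a short chain collagen of the cornea and the vessel wall, was the highest at 152 CPM per kb over all libraries and ranked 124 of 17737 genes with an exon length. The fibrillar genes COL3A1 and COL1A1 followed at 106 and 68.5 CPM per kb, then the microfibrillar genes COL6A2 and COL6A1 at 59.8 and 43.9 CPM per kb and the multiplexin COL18A1 at 33.9 CPM per kb. COL4A2 and COL4A1, the common basement membrane chains, had 16.1 and 12.7 CPM per kb. Each of these genes lay above the others in the plot of levels at every stiffness. At the other end, COL4A6, COL17A1 and COL6A6 had 0.0782, 0.0711 and 0.0898 CPM per kb. The order depends in part on the length used: per kb of coding length COL4A2 stood above COL18A1, at 57.4 and 53.8 CPM.

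**Figure D1:**
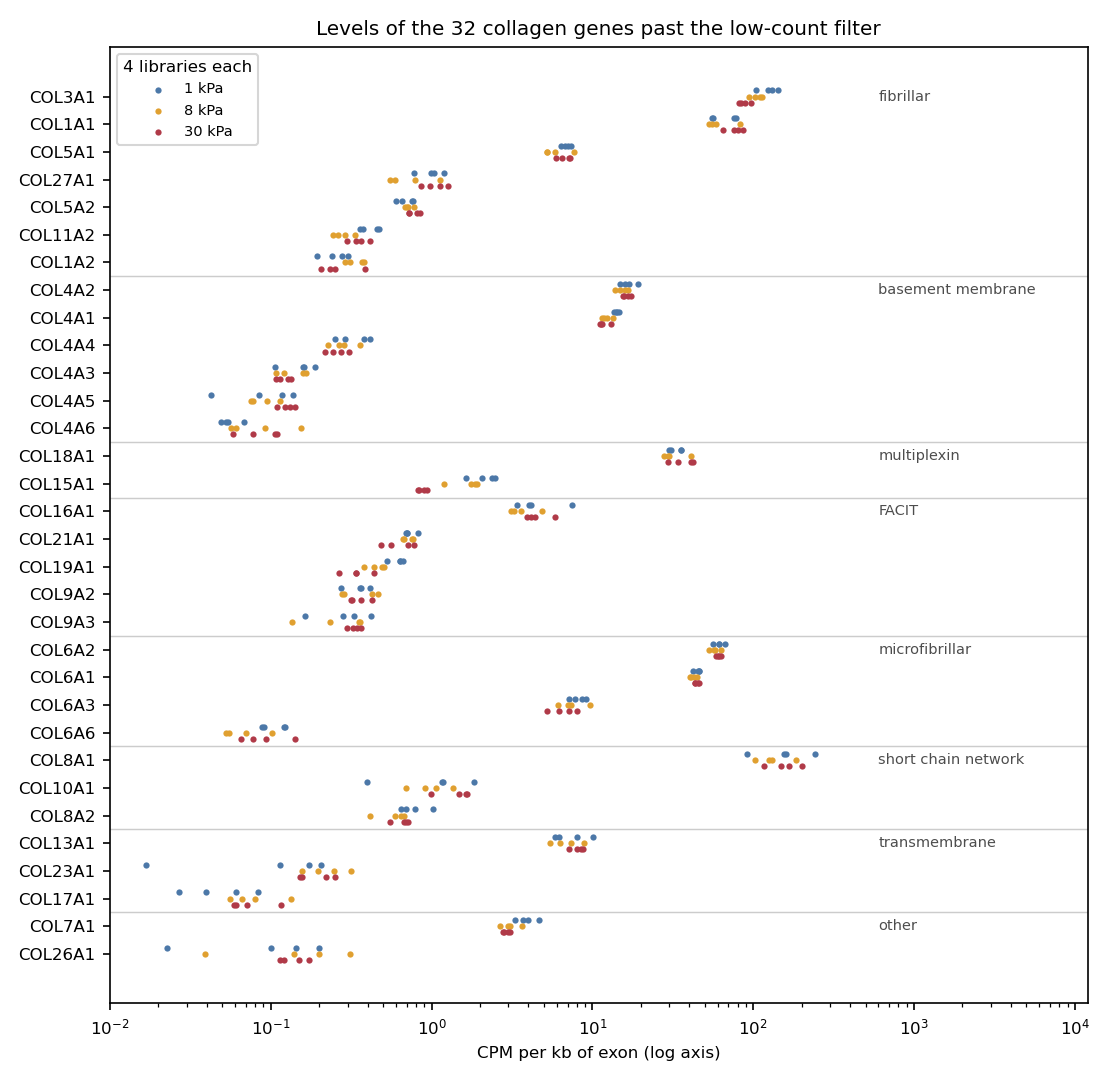
Level of each of the 32 collagen genes past the low-count filter, as CPM per kb of exon on a log axis, grouped by class; each point is a library and each colour a stiffness, 4 libraries each. COL8A1, COL3A1 and COL1A1 have the highest means at every stiffness, and only in COL15A1, COL19A1, COL3A1, COL4A1 and COL7A1 do all 30 kPa points lie left of all 1 kPa points.

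The collagen genes called between stiffnesses were all lower on the stiffer surface. At 30 against 1 kPa, 5 of 32 were lower and 0 were higher: the multiplexin COL15A1, the FACIT gene COL19A1, the fibrillar COL3A1, the basement membrane chain COL4A1 and the anchoring fibril gene COL7A1. Calls are adjusted p-values under 0.05 from the quasi-likelihood F-test of edgeR, after Benjamini-Hochberg adjustment over all 17960 genes. Over all genes 2.43% were called in this comparison, 1.33% lower and 1.1% higher. The 30 kPa libraries lay below all 1 kPa libraries without overlap in 5 of the 32 collagen genes, where 6.06% of all genes did, and above them in 0 of the 32, where 5.33% of all genes did. Among the 12 genes under the filter, COL9A1, a chain of type IX collagen, lay higher without overlap, with 8 to 12 counts at 30 kPa and 1 to 4 counts in the shallower 1 kPa libraries (0.313 to 0.430 CPM against 0.0633 to 0.279 CPM). The median log2 fold change of the collagen genes was -0.02, against 2.06e-05 over all genes, and 14 of the 32 had a positive value. In RNA of whole cultures, fewer cells of a type and less RNA per cell cannot be told apart.

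At 8 against 1 kPa, 3 of 32 were lower and 0 higher, where 13.8% of all genes were called, 5.6% lower and 8.17% higher. These were COL11A2, a fibrillar gene of cartilage, COL7A1 and COL4A1. Fold changes were negative in 25 of the 32, with a median log2 fold change of -0.14 against -0.01 over all genes. The 8 kPa libraries lay below all 1 kPa libraries in 3 of the 32 (COL11A2, COL4A1 and COL19A1), where 7.36% of all genes did, and above them in 0 of the 32, where 9.41% of all genes did.

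At 30 against 8 kPa edgeR called 0 of the 32 and 0% of all genes. At an unadjusted p under 0.05 it had 4 of the 32 and 3218 of all genes. DESeq2 called 1 collagen gene, COL15A1, and 2.39% of all genes. The 30 and 8 kPa libraries were apart in 1 of the 32 genes, COL15A1, lower at 30 kPa, where 6.5% of all genes lay lower and 4.79% higher without overlap. COL9A1, under the filter, lay higher at 30 kPa by a gap of less than 1 count (lowest 0.3133 CPM at 30 kPa, highest 0.3127 CPM at 8 kPa). For 8 kPa against the mean of 1 and 30 kPa, edgeR called 0 collagen genes and 7.08% of all genes (4.42% higher), with 5 collagen genes at an unadjusted p under 0.05 and COL11A2 the nearest to a call (log2 difference -0.43, SE 0.14, adjusted p = 0.0734). These comparisons share libraries, so their calls are not independent.

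The depth class as a term rests the 30 against 1 kPa difference on 8 kPa replicate 1, the only shallow library off 1 kPa. With this term edgeR called 0 collagen genes in every comparison. The fit with it also called 0% of all genes at 8 against 1 kPa, 30 against 8 kPa and 30 against 1 kPa. At 8 kPa against the mean of 1 and 30 kPa it called 7.06% of all genes. In that fit the log2 fold change at 30 against 1 kPa was -1.05 for COL15A1 (adjusted p = 0.444), -0.61 for COL19A1 (adjusted p = 0.522) and -0.42 for COL3A1 (adjusted p = 0.505), each nearer 0 than without the term, and -0.71 for COL7A1 (adjusted p = 0.444) and -0.34 for COL4A1 (adjusted p = 0.451), each farther from 0.

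**Figure D2:**
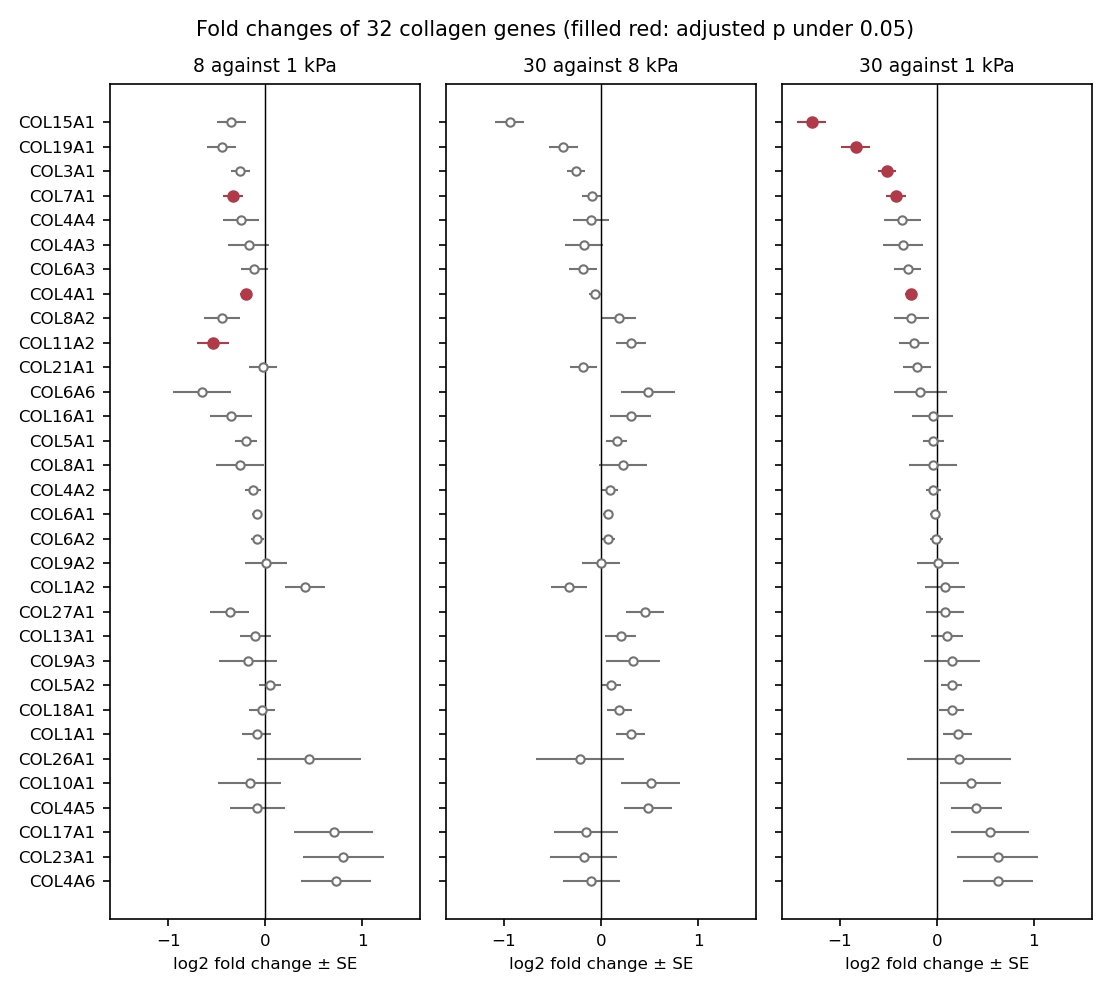
Log2 fold change with its SE (horizontal bars) of the 32 collagen genes at 8 against 1 kPa, 30 against 8 kPa and 30 against 1 kPa, ordered by the last; red filled points passed an adjusted p of 0.05. The 5 red points at 30 against 1 kPa and the 3 at 8 against 1 kPa all lie left of 0, and the middle panel has none.

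COL15A1 had the largest fold change of the 32 collagen genes at 30 against 1 kPa. It encodes a chondroitin sulphate-bearing multiplexin of the basement membrane zone that ties the sheet to the fibrils below it, and it lies on chromosome 9 from 98943179 to 99070792 on the plus strand (GRCh38, GENCODE v29). Its level was 16.5, 10.9, 13.6 and 15.8 CPM at 1 kPa, 12.7, 11.8, 12.4 and 7.98 CPM at 8 kPa, and 6.22, 5.47, 5.98 and 5.56 CPM at 30 kPa. All 30 kPa libraries lay below all libraries of both softer surfaces, and 8 kPa replicate 4 lay nearest to them. Means and SDs over 4 libraries were 5.81 ± 0.353 CPM at 30 kPa and 14.2 ± 2.52 CPM at 1 kPa, which gave -1.29 as the log2 fold change (SE 0.15, adjusted p = 0.00317), or 0.409 times the 1 kPa level. This call was kept in each of the 12 fits that left out a library, with adjusted p-values from 0.000295 to 0.0198. At 30 against 8 kPa the log2 fold change was -0.94 (SE 0.15, adjusted p = 0.0807). Without 8 kPa replicate 4 it was -1.07 (adjusted p = 0.00507), and it was also called without 1 kPa replicate 2 (adjusted p = 0.0209) or 1 kPa replicate 4 (adjusted p = 0.0456). Among deep libraries alone, a comparison added after the data were seen, it was -0.88 at 30 against 8 kPa (adjusted p = 0.0874). Within 8 kPa, the shallow replicate 1 had 12.7 CPM of COL15A1 and the deep replicates 2, 3 and 4 had 11.8, 12.4 and 7.98 CPM, so that the shallow library was the highest. The 8 and 1 kPa libraries overlapped, and at 8 against 1 kPa the log2 fold change was -0.35 (adjusted p = 0.12).

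Start regions are shown for the 4 genes called at 30 against 1 kPa that have an entry in the RefSeq promoter table (GRCh38.p14), because these genes differ in the same direction. Each window runs from 250 bases before to 50 bases after the start, 5′ to 3′ on the gene's own strand. Capitals mark the GC box, GGGCGG on either strand (CCGCCC on the other). The windows lie at chr9:98943657-98943956 (plus strand) for COL15A1, chr6:69866306-69866605 (plus strand) for COL19A1, chr13:110307108-110307407 (minus strand) for COL4A1 and chr3:48595280-48595579 (minus strand) for COL7A1.
COL15A1: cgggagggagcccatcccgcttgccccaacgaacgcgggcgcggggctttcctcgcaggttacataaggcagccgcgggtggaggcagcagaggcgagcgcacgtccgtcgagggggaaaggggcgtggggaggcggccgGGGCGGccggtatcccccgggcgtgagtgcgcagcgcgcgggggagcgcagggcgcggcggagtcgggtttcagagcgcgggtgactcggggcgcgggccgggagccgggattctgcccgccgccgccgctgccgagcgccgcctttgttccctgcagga
COL19A1: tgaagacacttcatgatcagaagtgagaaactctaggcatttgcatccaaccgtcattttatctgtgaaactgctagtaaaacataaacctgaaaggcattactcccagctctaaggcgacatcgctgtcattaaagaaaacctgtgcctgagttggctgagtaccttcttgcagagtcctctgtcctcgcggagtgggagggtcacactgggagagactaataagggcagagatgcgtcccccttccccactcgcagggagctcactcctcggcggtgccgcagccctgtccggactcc
COL4A1: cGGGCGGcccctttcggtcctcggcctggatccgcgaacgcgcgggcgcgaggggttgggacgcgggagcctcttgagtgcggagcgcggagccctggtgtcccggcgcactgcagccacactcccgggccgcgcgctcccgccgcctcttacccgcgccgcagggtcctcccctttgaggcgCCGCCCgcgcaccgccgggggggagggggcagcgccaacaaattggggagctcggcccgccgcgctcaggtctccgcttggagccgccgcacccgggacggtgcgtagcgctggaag
COL7A1: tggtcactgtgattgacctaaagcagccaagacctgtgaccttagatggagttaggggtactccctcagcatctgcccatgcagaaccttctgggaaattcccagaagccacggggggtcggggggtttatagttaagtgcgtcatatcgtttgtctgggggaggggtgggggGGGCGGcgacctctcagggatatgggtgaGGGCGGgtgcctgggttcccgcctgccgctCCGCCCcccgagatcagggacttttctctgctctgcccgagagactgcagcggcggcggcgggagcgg
The GC box occurred 1 time for COL15A1, 2 times for COL4A1, 3 times for COL7A1 and 0 times for COL19A1. COL15A1 and COL4A1 held 45 CpG dinucleotides each, COL7A1 17 and COL19A1 11, against a median of 14 per window over all promoters. Among collagen promoters (32 had an entry) 56.2% held a GC box, against 44.6% of all 27305. These are not the 32 genes past the filter. COL9A1 and COL12A1, under the filter, had an entry, while COL1A1, COL3A1 and COL8A1 had none. The letters GGAATG, which the TEAD factors bind, were in none of these 4 windows, in 3.12% of collagen promoters and in 14% of all; the AP-1 letters TGANTCA were in 0% and 7.76%. A CCAAT box (CCAAT) was in 31.2% of collagen promoters and 35.7% of all, and a TATA box (TATAAA) in 15.6% and 12%, searched on both strands. Of the 4 windows, COL4A1 held the CCAAT box and COL7A1 the TATA box. Matches of letters are a description and not binding sites.

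COL18A1, the other multiplexin, carries heparan sulphate, and its end fragment is endostatin. It had 256, 302, 303 and 262 CPM at 1 kPa, 239, 254, 252 and 352 CPM at 8 kPa and 290, 252, 350 and 359 CPM at 30 kPa. The groups overlapped, and 8 kPa replicate 4 lay above the other 8 kPa libraries. The log2 fold change at 30 against 1 kPa was 0.16 (SE 0.13, 95% interval -0.12 to 0.43, adjusted p = 0.561), and it was -0.10 with the depth term. COL18A1 shares 1401 exon bases with SLC19A1 on the opposite strand, which had 5044 counts over all libraries against 73540 for COL18A1 and was not called (0.10 at 30 against 1 kPa, adjusted p = 0.737). The difference between COL15A1 and COL18A1 in fold change was not tested.

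Among the fibrillar genes, COL3A1 was lower at 30 kPa. It encodes type III collagen of vessel walls and reticular fibres and lies on chromosome 2 from 188974320 to 189012746. It had 893, 713, 841 and 977 CPM at 1 kPa, 755, 642, 771 and 699 CPM at 8 kPa and 661, 572, 607 and 555 CPM at 30 kPa. All 30 kPa libraries lay below all 1 kPa libraries, while the 8 kPa libraries overlapped both. Means and SDs over 4 libraries were 599 ± 47.2 CPM at 30 kPa and 856 ± 111 CPM at 1 kPa, which gave -0.52 as the log2 fold change (SE 0.09, adjusted p = 0.0159), or 0.699 times the 1 kPa level. The call was lost without 30 kPa replicate 3 (adjusted p = 0.062) or 30 kPa replicate 4 (adjusted p = 0.0531). At 8 against 1 kPa and at 30 against 8 kPa the log2 fold changes were -0.26 and -0.26 (adjusted p = 0.0831 and 0.194). Without 1 kPa replicate 2, COL3A1 was called at 8 against 1 kPa (-0.34, adjusted p = 0.0329).

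COL1A1, the main chain of the type I collagen of bone, tendon and skin, passed no test in the fit of all libraries. It had 554, 747, 762 and 541 CPM at 1 kPa, 523, 542, 573 and 809 CPM at 8 kPa and 746, 636, 851 and 792 CPM at 30 kPa. All groups overlapped, and 8 kPa replicate 4 stood above the other 8 kPa libraries. The log2 fold change at 30 against 1 kPa was 0.22 (SE 0.15, 95% interval -0.10 to 0.54, adjusted p = 0.467), and -0.08 with the depth term. Its partner chain COL1A2 had 2.15 to 3.36 CPM at 1 kPa, 3.23 to 4.26 CPM at 8 kPa and 2.29 to 4.29 CPM at 30 kPa, and none of its tests passed.

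COL11A2, a chain of the type XI collagen found in cartilage fibrils, was lower at 8 kPa. It had 3.07, 2.51, 2.41 and 3.17 CPM at 1 kPa, 1.77, 1.65, 1.95 and 2.25 CPM at 8 kPa and 2.80, 2.27, 2.44 and 2.00 CPM at 30 kPa. All 8 kPa libraries lay below all 1 kPa libraries, and the 30 kPa libraries overlapped both groups. Means and SDs over 4 libraries were 1.91 ± 0.261 CPM at 8 kPa and 2.79 ± 0.386 CPM at 1 kPa, which gave -0.54 as the log2 fold change (SE 0.16, adjusted p = 0.0422). The call was lost in 9 of the 12 fits without a library, namely without any of the 1 kPa libraries, without 8 kPa replicates 1, 2 or 3, or without 30 kPa replicates 2 or 3, with adjusted p-values from 0.0509 to 0.101.

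The remaining fibrillar genes passed no test in the fit of all libraries. COL5A1, a type V chain that starts type I fibrils, had 71.2 to 82.2 CPM at 1 kPa, 58.3 to 85.9 CPM at 8 kPa and 66.4 to 81.2 CPM at 30 kPa. COL27A1, a fibrillar gene of growth cartilage, had 10.8 to 16.8 CPM, 7.74 to 15.9 CPM and 12.1 to 17.6 CPM at 1, 8 and 30 kPa. In both, 8 kPa replicate 4 was the highest of its group. COL5A2, the partner chain of COL5A1, had 4.49 to 6.27 CPM over all libraries. Without 8 kPa replicate 4, at 30 against 8 kPa edgeR called COL5A1 (log2 fold change 0.31, adjusted p = 0.0386), COL27A1 (0.70, adjusted p = 0.0313) and COL1A1 (0.47, adjusted p = 0.0484) higher, so that the collagen calls there were 4 in place of 0, where the same fit called 5.63% of all genes in place of 0%. Without the same library COL5A1 (-0.35, adjusted p = 0.0107) and COL27A1 (-0.62, adjusted p = 0.023) were called lower at 8 against 1 kPa. That comparison had 3 collagen calls with and without the library, and 19% of all genes were called in place of 13.8%. Without 8 kPa replicate 4, 5 collagen genes were called at 8 kPa against the mean of 1 and 30 kPa, in place of 0, and 15.7% of all genes in place of 7.08%. The 5 were COL1A1, COL5A1, COL11A2 and COL27A1 below that mean and COL15A1 above it.

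**Figure D3:**
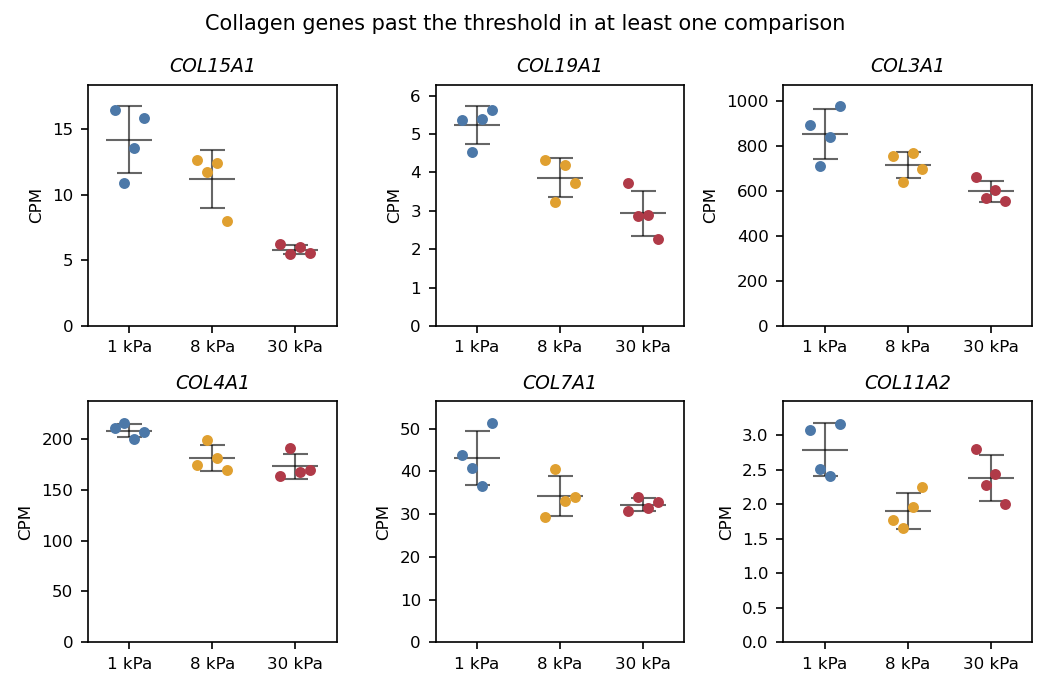
CPM of the 6 collagen genes past the threshold in at least one comparison; each point is a library, and the horizontal line and bars are the mean ± SD of 4 libraries at 1, 8 and 30 kPa. In the top row and in COL4A1 and COL7A1 every 30 kPa point lies below every 1 kPa point, while COL11A2 is lowest at 8 kPa.

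The basement membrane chains COL4A1 and COL4A2 wind together in the common type IV network and are neighbours on chromosome 13, read in opposite directions. Their RefSeq starts lie 127 bases apart, so that the COL4A1 window printed above shares 226 bases with the COL4A2 window. COL4A1 had 210, 215, 199 and 207 CPM at 1 kPa, 174, 199, 181 and 169 CPM at 8 kPa and 164, 191, 167 and 169 CPM at 30 kPa. All 8 kPa and all 30 kPa libraries lay below all 1 kPa libraries, and the 30 kPa libraries overlapped the 8 kPa libraries. At 8 kPa the gap was narrow, with 198.5 CPM in 8 kPa replicate 2 and 199.5 CPM in 1 kPa replicate 3. Means and SDs over 4 libraries were 173 ± 12.3 CPM at 30 kPa and 208 ± 6.67 CPM at 1 kPa, which gave -0.27 as the log2 fold change (SE 0.06, adjusted p = 0.0427). At 8 against 1 kPa it was -0.20 (SE 0.06, adjusted p = 0.0476). Both calls lay near the threshold. The call at 30 against 1 kPa was lost without 1 kPa replicates 1, 2 or 3, 8 kPa replicates 1 or 3, or 30 kPa replicates 1, 3 or 4 (adjusted p from 0.0529 to 0.145). The call at 8 against 1 kPa was lost without 1 kPa replicates 1, 2 or 3, 8 kPa replicates 1, 3 or 4, or 30 kPa replicates 1, 3 or 4 (adjusted p from 0.0541 to 0.124).

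COL4A2 had 306, 372, 326 and 284 CPM at 1 kPa, 268, 322, 287 and 306 CPM at 8 kPa and 299, 334, 322 and 304 CPM at 30 kPa. The groups overlapped, with a log2 fold change at 30 against 1 kPa of -0.03 (SE 0.08, 95% interval -0.21 to 0.14, adjusted p = 0.871). Its sign turned without 1 kPa replicate 2 (0.04). The spans of COL4A1 and COL4A2 overlap at their starts by 1422 bases in GENCODE v29, with no shared exon bases, and the strand setting of the counting is not given in the sources used here. The chains COL4A3 to COL4A6, which make the networks of the kidney filter, the lens and other specialised membranes, had 0.455 to 4.16 CPM and passed no test in any comparison.

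The FACIT gene COL19A1, a rare collagen that in mice is known for the synapses of interneurons, lay on chromosome 6 from 69866571 to 70209976. It had 5.38, 4.52, 5.40 and 5.63 CPM at 1 kPa, 4.33, 3.22, 4.18 and 3.72 CPM at 8 kPa and 3.71, 2.86, 2.90 and 2.27 CPM at 30 kPa. Both stiffer groups lay below all 1 kPa libraries and overlapped each other. Means and SDs over 4 libraries were 2.94 ± 0.592 CPM at 30 kPa and 5.23 ± 0.488 CPM at 1 kPa, which gave -0.84 as the log2 fold change (SE 0.15, adjusted p = 0.0159), or 0.56 times the 1 kPa level. The call was lost without 30 kPa replicate 3 (adjusted p = 0.0622). At 8 against 1 kPa the log2 fold change was -0.45 (adjusted p = 0.0625), and it was called without 30 kPa replicate 1 (adjusted p = 0.0479) or 30 kPa replicate 4 (adjusted p = 0.0491). COL19A1 shares 70 exon bases with LMBRD1 on the opposite strand, which had 11859 counts over all libraries against 952 for COL19A1. For LMBRD1 the log2 fold change was -0.17 at 30 against 1 kPa (adjusted p = 0.243), and its part in the COL19A1 value was not tested.

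COL16A1, a FACIT gene of smooth muscle and skin, was the highest of its class at 37.1, 68.7, 38.4 and 31.5 CPM at 1 kPa, 30.2, 44.8, 28.7 and 33.5 CPM at 8 kPa and 36.5, 54.5, 38.4 and 40.8 CPM at 30 kPa. Replicate 2 was the highest library at each stiffness, and the groups overlapped. The log2 fold change at 30 against 1 kPa was -0.04 (SE 0.21, adjusted p = 0.942), and 0.26 without 1 kPa replicate 2. COL21A1, a FACIT gene of vessel walls, had 4.96, 5.81, 4.94 and 4.87 CPM at 1 kPa, 4.79, 4.71, 5.32 and 5.40 CPM at 8 kPa and 5.47, 3.41, 3.94 and 5.05 CPM at 30 kPa, with overlapping groups (-0.20 at 30 against 1 kPa, SE 0.15, adjusted p = 0.486). COL9A2 and COL9A3, chains of the type IX collagen on cartilage fibrils, had 0.655 to 2.03 CPM and passed no test.

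The microfibrillar genes of type VI collagen passed no test, and COL6A1 had the smallest SE of the 32 genes at 30 against 1 kPa. COL6A1 had 243, 247, 244 and 226 CPM at 1 kPa, 217, 239, 218 and 230 CPM at 8 kPa and 233, 231, 244 and 242 CPM at 30 kPa, with a log2 fold change at 30 against 1 kPa of -0.01 (SE 0.05, 95% interval -0.12 to 0.10, adjusted p = 0.923). COL6A2 had 328, 357, 328 and 301 CPM at 1 kPa, 285, 341, 306 and 310 CPM at 8 kPa and 314, 324, 340 and 330 CPM at 30 kPa, with -0.01 (SE 0.07, 95% interval -0.15 to 0.13, adjusted p = 0.976). In both genes the groups overlapped in every comparison. COL6A3, the long partner chain, had 140 to 180 CPM at 1 kPa, 121 to 190 CPM at 8 kPa and 103 to 158 CPM at 30 kPa. Its log2 fold change at 30 against 1 kPa was -0.30 (SE 0.14, 95% interval -0.60 to 0.00, adjusted p = 0.27). COL6A6, a further chain of this type, had 0.508 to 1.38 CPM over all libraries.

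COL8A1 had 1460, 2288, 1498 and 866 CPM at 1 kPa, 1172, 1739, 1236 and 970 CPM at 8 kPa and 1577, 1893, 1405 and 1092 CPM at 30 kPa. Replicate 2 was the highest and replicate 4 the lowest library at each stiffness, and the groups overlapped throughout. The spread between libraries of one stiffness, from 866 to 2288 CPM at 1 kPa, exceeded any difference between means, which were 1528 ± 583, 1279 ± 327 and 1492 ± 334 CPM at 1, 8 and 30 kPa (± SD of 4 libraries). The log2 fold change at 30 against 1 kPa was -0.03 (SE 0.25, 95% interval -0.56 to 0.49, adjusted p = 0.963). COL10A1, the short chain collagen of hypertrophic cartilage, had 4.40, 7.03, 4.49 and 1.52 CPM at 1 kPa, 3.48, 5.15, 4.06 and 2.66 CPM at 8 kPa and 6.26, 5.64, 6.34 and 3.80 CPM at 30 kPa. Replicate 4 was again the lowest at each stiffness, and the log2 fold change at 30 against 1 kPa was 0.35 (SE 0.31, adjusted p = 0.597). COL8A2, the partner of COL8A1, had 1.93 to 4.75 CPM and passed no test.

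**Figure D4:**
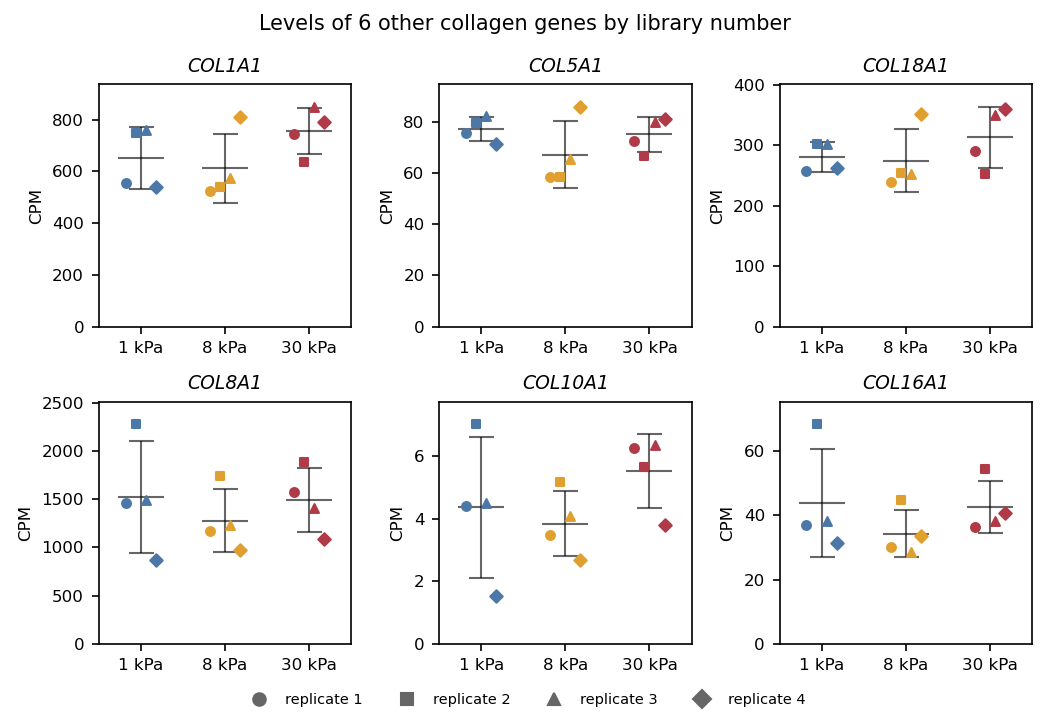
CPM by library number of 6 collagen genes that passed no test in the fit of all libraries, chosen after their values were seen; the marker shape is the replicate number, and the line and bars are the mean ± SD of 4 libraries at each stiffness. In COL1A1, COL5A1 and COL18A1 replicate 4 (diamond) lies highest at 8 kPa, and in COL8A1 replicate 2 (square) is highest and replicate 4 lowest at every stiffness.

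COL7A1, which forms the anchoring fibrils under the skin's basement membrane, was lower on both stiffer surfaces. It lies on chromosome 3 from 48564073 to 48595267 on the minus strand. It had 43.8, 40.9, 36.5 and 51.3 CPM at 1 kPa, 29.4, 40.5, 33.0 and 34.0 CPM at 8 kPa and 30.7, 34.0, 31.4 and 32.8 CPM at 30 kPa. All 30 kPa libraries lay below all 1 kPa libraries, while 8 kPa replicate 2 overlapped the 1 kPa group. Means and SDs over 4 libraries were 32.2 ± 1.44 CPM at 30 kPa and 43.2 ± 6.22 CPM at 1 kPa, which gave -0.42 as the log2 fold change (SE 0.10, adjusted p = 0.0467). At 8 against 1 kPa it was -0.33 (SE 0.10, adjusted p = 0.0465). The call at 30 against 1 kPa was lost without 1 kPa replicates 1 or 4, 8 kPa replicate 3 or any 30 kPa library (adjusted p from 0.0667 to 0.145). The call at 8 against 1 kPa was kept in only 2 of the 12 fits, those without 1 kPa replicate 3 or 8 kPa replicate 2.

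The transmembrane genes passed no test. COL13A1, a collagen of cell adhesions and the neuromuscular junction, had 34.4, 59.5, 47.2 and 36.7 CPM at 1 kPa, 32.2, 43.6, 37.2 and 52.1 CPM at 8 kPa and 42.0, 47.1, 50.2 and 51.5 CPM at 30 kPa, with overlapping groups and a log2 fold change at 30 against 1 kPa of 0.10 (SE 0.16, adjusted p = 0.786). COL23A1 had 0.769, 0.431, 0.650 and 0.0633 CPM at 1 kPa, 1.18, 0.926, 0.586 and 0.737 CPM at 8 kPa and 0.834, 0.589, 0.573 and 0.940 CPM at 30 kPa. COL17A1, a collagen of epithelial anchoring junctions, had 0.190 to 0.941 CPM over all libraries. Beyond the transmembrane genes, COL26A1 had 0.629, 0.0718, 0.455 and 0.317 CPM at 1 kPa, 0.984, 0.443, 0.625 and 0.123 CPM at 8 kPa and 0.542, 0.379, 0.358 and 0.470 CPM at 30 kPa, with overlapping groups. The intervals of COL23A1 and COL26A1 were wide: the log2 fold change at 30 against 1 kPa was 0.63 for COL23A1 (95% interval -0.27 to 1.52, adjusted p = 0.448) and 0.23 for COL26A1 (95% interval -0.92 to 1.38, adjusted p = 0.867).

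Chains that share a trimer were compared within each library, as ratios per kb of exon and with no test. The transcripts of the type I chains were unbalanced. COL1A1 exceeded COL1A2 by 183 to 394 times at 1 kPa, 139 to 284 times at 8 kPa and 168 to 370 times at 30 kPa. COL1A2 overlaps an antisense gene with 278 counts over all libraries, against 805 of its own, with no shared exon bases. COL5A1 exceeded COL5A2 by 8.88 to 10.8 times at 1 kPa, 7.34 to 11.3 times at 8 kPa and 7.05 to 10.1 times at 30 kPa.

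In basement membrane collagen COL4A1 stood at 0.758 to 0.951 of COL4A2 at 1 kPa, 0.724 to 0.853 at 8 kPa and 0.681 to 0.749 at 30 kPa. The 30 kPa libraries did not overlap the 1 kPa libraries in this ratio. In type VI collagen COL6A1 stood at 0.696 to 0.756, 0.708 to 0.770 and 0.720 to 0.747 of COL6A2 at 1, 8 and 30 kPa. COL6A3 stood at 0.155 to 0.217, 0.137 to 0.225 and 0.121 to 0.178 of COL6A1. These ranges overlapped at all stiffnesses.

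**Figure D5:**
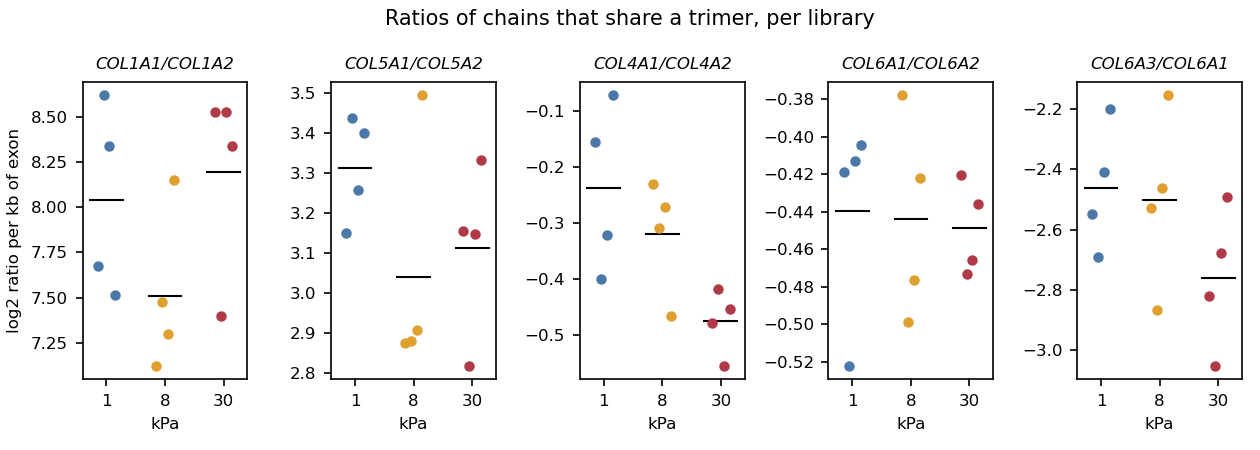
Log2 ratio per kb of exon between chains that share a trimer, with a point per library and a line at the mean of 4 libraries at 1, 8 and 30 kPa; each panel has its own vertical scale. COL1A1 exceeds COL1A2 by 139 to 394 times in every library, and only in COL4A1 over COL4A2 do the 30 kPa points lie below all 1 kPa points.

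Summed over its members, no class had 8 or 30 kPa libraries apart from all 1 kPa libraries except the group of COL7A1, COL26A1 and COL28A1, which COL7A1 dominates and which had 31.8 to 34.7 CPM at 30 kPa and 37.5 to 51.9 CPM at 1 kPa. The fibrillar sum was 1300 to 1565 CPM at 30 kPa and 1545 to 1710 CPM at 1 kPa. The basement membrane sum was 469 to 532 CPM at 30 kPa and 497 to 594 CPM at 1 kPa. All 44 genes together had 4104 to 5699 CPM at 1 kPa, 3984 to 4646 CPM at 8 kPa and 4267 to 4796 CPM at 30 kPa.

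Genes that fold, process and crosslink collagen were measured beside it. Of 35 such genes 34 passed the filter. At 30 against 1 kPa 1 was higher, ADAMTS2, which cuts the leading propeptide of fibrillar collagens, with means of 3.21 CPM at 30 kPa and 1.31 CPM at 1 kPa (log2 fold change 1.30, SE 0.21, adjusted p = 0.00822). In the same comparison 2 were lower, where 1.33% of all genes were called lower and 1.1% higher. TLL1, a tolloid protease that trims the trailing propeptide, had means of 3.27 CPM at 30 kPa and 9.29 CPM at 1 kPa (-1.51, SE 0.26, adjusted p = 0.0122), and ADAMTS3, a relative of ADAMTS2, fell by 0.23 on the log2 scale (adjusted p = 0.0448).

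In the 8 against 1 kPa comparison, 4 of the 34 were lower and 0 higher: COLGALT2, which adds galactose to collagen (-0.49, adjusted p = 0.00656), MIA3, which loads procollagen into transport vesicles (-0.22, adjusted p = 0.0194), PCOLCE, which enhances propeptide cutting (-0.21, adjusted p = 0.0262), and ADAMTS3 (-0.20, adjusted p = 0.0321). Of all genes 5.6% were called lower and 8.17% higher in that comparison. At 30 against 8 kPa 0 were called. Against the mean of 1 and 30 kPa COLGALT2 and MIA3 were lower at 8 kPa (-0.43 and -0.17, adjusted p = 0.0231 and 0.0491). There 2.66% of all genes were called lower. The hydroxylase subunit P4HA1 and the collagen chaperone SERPINH1 passed no test, at 92.7 to 134 and 157 to 193 CPM over all libraries.

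Of 18 genes for collagen receptors and turnover, 15 passed the filter. At 30 against 1 kPa 2 were lower and 0 higher, where 1.33% of all genes were called lower and 1.1% higher. The 2 lower genes were the collagen-binding integrin chains ITGA10, with means of 15.3 CPM at 30 kPa and 28.4 CPM at 1 kPa (-0.90, SE 0.14, adjusted p = 0.00817), and ITGA11, with means of 808 CPM at 30 kPa and 1088 CPM at 1 kPa (-0.43, SE 0.10, adjusted p = 0.0427). Between 8 and 1 kPa, ITGA11 (-0.36, adjusted p = 0.0312) and the receptor kinase DDR1 (-0.44, adjusted p = 0.0123) were lower, where 5.6% of all genes were called lower. At 30 against 8 kPa 0 were called. At 8 kPa against the mean of 1 and 30 kPa the collagen-binding integrin chain ITGA2 and DDR1 were lower (-0.71 and -0.42, adjusted p = 0.0307 and 0.0257). There 2.66% of all genes were called lower. LAIR1, an inhibitory receptor of immune cells, was at 0 in every library.

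Some markers of the cell types known in this line were called in the same comparisons. At 30 against 1 kPa 3 of the 10 substrate-adherent or mesenchymal markers, a list without collagens, were lower and 0 higher (PRRX1 -0.35, YAP1 -0.22 and WWTR1 -0.62 on the log2 scale). In that comparison 1.33% of all genes were called lower and 1.1% higher. Of the 7 uncalled markers on that list, FOSL1, FN1, TWIST1 and NOTCH2 had positive values (0.68, 0.09, 0.07 and 0.02). The list summed to 4253 to 4778 CPM at 30 kPa and 5047 to 5429 CPM at 1 kPa. Its largest members were PRRX1 (means of 1407 CPM at 30 kPa and 1794 CPM at 1 kPa) and the uncalled VIM (1278 and 1509 CPM), so the sum mostly follows these genes. Of the neuroblastic markers PHOX2A was higher (0.52), GATA3 and DBH had -0.04 and 0.05 with no call, and that list summed to overlapping ranges, 941 to 1083 CPM at 30 kPa and 593 to 977 CPM at 1 kPa. In the 8 against 1 kPa comparison the neuroblastic markers PHOX2A and STMN2 were higher and 0 mesenchymal markers were called, with sums of 4527 to 5304 CPM for the mesenchymal and 865 to 1280 CPM for the neuroblastic list at 8 kPa, against the 1 kPa sums just given. Of all genes 8.17% were called higher and 5.6% lower at 8 against 1 kPa. The part of these markers in the lower collagen genes was not tested.

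Markers of fibroblasts, without collagens, had 0 calls in the 7 of 8 that were tested and summed to 863 to 1209 CPM at 1 kPa, 845 to 944 CPM at 8 kPa and 875 to 1061 CPM at 30 kPa, with PDPN at no more than 0.0417 CPM. The 5 endothelial markers summed to 2.70 to 3.46 CPM at 30 kPa and 4.88 to 10.3 CPM at 1 kPa, without overlap, and to 2.78 to 7.90 CPM at 8 kPa. PECAM1, which made up most of that sum on average, was at means of 1.64 CPM at 30 kPa and 5.50 CPM at 1 kPa (log2 fold change -1.75, SE 0.44, adjusted p = 0.0521), while CDH5 and KDR had at most 0.0409 and 0.0717 CPM in any library. Of the 5, 2 passed the filter and 0 were called. The part of endothelial transcripts in the lower COL15A1 and COL4A1 was not tested. Schwann cell and immune markers summed to at most 6.10 and 1.05 CPM in any library, with FOXD3 at 0 in all, and epithelial markers to at most 72.2 CPM, and their sums overlapped between stiffnesses. Of these lists, S100B alone was called, higher at 8 against 1 kPa, where 8.17% of all genes were called higher.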

How the data were processed

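The 12 SK-N-SH libraries of RNA-seq reads, 4 per stiffness, were grouped by the stiffness in their labels. Reads were aligned with HISAT2 to GRCh38, per the submitters' processing notes. The authors deposited raw counts per Ensembl gene, and the counting tool, annotation release, strand setting and filters are not given in the sources used here. Symbols came from the name table (42028 of 60664 genes had one), and positions, exon lengths and gene types from GENCODE v29 (58396 genes found).

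Counts were fitted in R 4.3.3 with edgeR 4.0.16: filterByExpr, TMM scaling, all 12 libraries with stiffness as the only term, the quasi-likelihood F-test and Benjamini-Hochberg adjustment over 17960 genes, with a threshold of 0.05. The biological coefficient of variation was 0.0966. Each SE is the log2 fold change divided by the root of F, and 95% intervals rest on it. CPM uses TMM library sizes. No 2 libraries of a group agreed within sampling noise (lowest chi-square per degree of freedom 2.52). The fit was tested on simulated data.

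The members, classes and gene lists were chosen with earlier results of these data known. The value of 1 neuroblastic marker is not reported here; the list's sums include it. Classes beyond fibrillar, basement membrane, FACIT and microfibrillar were added to hold every member. Full values are given for collagen genes past the threshold in any comparison and for the 2 with the highest CPM per kb in each class, other tested members by range, and pathway genes where past the threshold, up to 5 per list and comparison. COL1A2, COL5A1, COL27A1 and COL6A3 are named beyond this rule, after their values were seen. Sequences are from RefSeq, which had a promoter for 32 of the 44 genes and none for COL14A1, COL1A1, COL1A2, COL20A1, COL22A1, COL2A1, COL3A1, COL5A2, COL6A1, COL6A5, COL8A1 and COL9A3. Alternatives were median-ratio scaling, library size alone, no filter, a stricter filter (1 CPM in 4 libraries), DESeq2 1.42.0, only the 8 libraries compared, a replicate block, the depth class (boundary 2e+07 counts) as a term, a length and GC offset, coding length for ratios, and leaving out each library; the deep libraries alone were chosen after seeing the data.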

Additional observations from a re-analysis of the deposited data

Results flagged for a closer look

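In 69 groups of 4 libraries looked at, over collagen levels and chain ratios, 5 had a library whose gap to the nearest other library, as a share of the group's range, was above Dixon's 95% critical value. Chance flags about 1 in 20 groups. COL18A1 stood at 352 CPM in 8 kPa replicate 4, against 239 to 254 CPM in the other 8 kPa libraries. The per-kb ratio of COL5A1 to COL5A2 was 11.3 in the same library, against 7.34 to 7.50 in the others. COL21A1 was at 5.81 CPM in 1 kPa replicate 2, against 4.87 to 4.96 CPM in the other 1 kPa libraries. The COL6A1 to COL6A2 ratio was low in that library at 0.696, against 0.748 to 0.756. COL6A1 was at 226 CPM in 1 kPa replicate 4, against 243 to 247 CPM in the other 1 kPa libraries.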

How the results depend on the processing

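Collagen calls at 8 against 1 kPa, 3 in the fit of all libraries, numbered 0 with library size alone, 0 with only the 8 libraries compared, 0 with the depth term, 1 with no filter and 5 with DESeq2, and 0 to 3 on leaving out a library. Of all genes 13.8% were called in the fit of all libraries. Their share was 12.1% with library size alone, 6.53% with only the 8 libraries compared, 0% with the depth term, 6.82% with no filter and 17.6% with DESeq2. It ran from 2.93% to 19.5% on leaving out a library. At 30 against 8 kPa the 0 calls became 1 with no filter, DESeq2 or only the 8 libraries compared, each time COL15A1, and 0 to 4 on leaving out a library. The share of all genes called was 0.918%, 2.39% and 0.347% in these settings, and 0% to 5.63% on leaving out a library. At 30 against 1 kPa the 5 calls became 3 with library size alone and 0 with the depth term, and 1 to 5 on leaving out a library: COL15A1 alone without 30 kPa replicate 3, 2 genes without 30 kPa replicate 4, and 3 where the first library of 1 or 30 kPa or 8 kPa replicate 3 was left out. There 2.43% of all genes were called in the fit of all libraries, 1.46% with library size alone and 0% with the depth term. On leaving out a library the share ran from 0.275% (without 30 kPa replicate 3) to 3.71% (without 8 kPa replicate 4). At 8 kPa against the mean of 1 and 30 kPa the 0 calls became 0 to 5 on leaving out a library, where 0% to 15.7% of all genes were called.

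The labels do not say that replicate numbers pair the libraries, and the numbers missed the rule for pairing (every correlation over 0.1): of 12 correlations between same-numbered libraries 6 were over 0.1 (range -0.134 to 0.369), all 3 among replicates 2 among them, and 5 of 12 libraries correlated best with their own number. With the replicate block, collagen calls were 7 at 8 against 1 kPa (18.2% of all genes), 1 at 30 against 8 kPa (0.223%), 6 at 30 against 1 kPa (5.42%) and 1 at 8 kPa against the mean of 1 and 30 kPa (11.7%), and COL8A1 turned to 0.016 at 30 against 1 kPa.

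Uncalled log2 fold changes at 30 against 1 kPa that changed sign were COL1A1 (-0.076), COL18A1 (-0.10) and COL13A1 (-0.36) with the depth term, COL6A2 (0.015) and COL6A1 (0.0064) with library size alone, and COL6A2 (0.015) and COL6A1 (0.0073) with no filter. Leaving out a library gave ranges across 0 for COL4A2 (-0.092 to 0.043), COL16A1 (-0.19 to 0.26), COL6A2 (-0.047 to 0.038), COL6A1 (-0.044 to 0.00094), COL8A1 (-0.23 to 0.23), COL13A1 (-0.00024 to 0.27) and COL26A1 (-0.085 to 0.59). By coding length the mean log2 ratio of COL4A1 to COL4A2 was -0.70 (-0.34 by exon length), of COL5A1 to COL5A2 3.43 (3.15) and of COL6A1 to COL6A2 -0.31 (-0.44). The cause of these changes was not tested. No setting moved the median of all genes by over 0.1. Genes under a few CPM had too few counts for small differences to be detectable.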
